A study of Mus musculus with 58 samples.

Results

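Brown fat thermogenic genes were followed in every mouse of an indeno(123-c,d)pyrene (IP) study, in lung, liver and forestomach. The 7 genes were Ucp1, Cidea, Cox8b, Cox7a1, Elovl3, Dio2 and Ppargc1a, out of 20018 genes named on the array, and 8 probes matched them by transcript accession. They were chosen by the dose results in lung, where Ucp1 was lower in dosed mice than in vehicle mice, so lung values are given as a description with no test of their own. Contrasts of vehicle lung with other tissues use the same vehicle lung arrays and are treated the same way. Liver and forestomach doses were fitted without the lung arrays and were tested. Vehicle forestomach against vehicle liver was tested too. Its means used no lung arrays, but its SE and p came from a joint fit of all 58 arrays, lung included. Earlier results of these data were known at the choice, so full independence of these tests from it is not established.

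All animals were male Muta™Mouse of about 13 weeks, housed singly, and were gavaged daily for 28 days. Vehicle mice (numbers 1 to 5) received olive oil, and the others received IP in olive oil at 12.5 (mice 6 to 10), 25 (mice 11 to 15) or 50 mg/kg-bw/day (mice 16 to 20). Tissue was taken 72 h after the last dose, and RNA came from random sections of each organ. Lung had 20 arrays, 5 a group, while liver and forestomach had 19 each, with vehicle mouse 4 in lung only. The labels number 5 vehicle lungs, whereas the extraction protocol in the same labels and the methods give 4 vehicle mice, and why mouse 4 has a lung array is not given in the sources used here.

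Each array compared Cy5-labelled sample RNA with a Cy3-labelled universal mouse reference made from 11 cell lines. Values below are log2 ratios of sample to reference after loess normalization, so they order the mice for 1 gene and cannot order the genes. A spot is called above background where the scanner software marked its Cy5 signal well above background. The share of probes so marked was 53.0% to 90.7% over lung arrays, 37.6% to 78.9% over liver and 43.0% to 85.9% over forestomach, and the lung array with the lowest share was that of vehicle mouse 1. Epithelial genes matched the labels: the lung epithelium list averaged 5.43 to 6.19 in lung, the hepatocyte list 7.49 to 8.64 in liver and the squamous list 3.82 to 4.80 in forestomach. The forestomach arrays were not alike, since a list of 10 glandular stomach genes averaged 4.93 to 6.89 in 10 mice and 0.57 to 1.90 in the other 9.

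Brown fat cells burn fatty acids to make heat. Noradrenaline acting on beta-adrenergic receptors raises cyclic AMP, which releases fatty acids and induces Ucp1, whose protein lets protons return across the inner mitochondrial membrane without making ATP. Ppargc1a is the coactivator that drives mitochondrial and thermogenic transcription, and Dio2 makes active thyroid hormone inside the cell. Elovl3 lengthens fatty acids, Cidea sits on lipid droplets, and Cox7a1 and Cox8b are tissue-restricted subunits of cytochrome c oxidase that heart and skeletal muscle share with brown fat. Apart from Ucp1, therefore, every member is also made by other cell types.

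The start sites of Ucp1 and Cox7a1 are shown because these genes are set apart below: they ordered the lungs differently. The sequences are the 250 bases before the RefSeq start of each gene on GRCm38.p6, at chr8:83290098-83290347 and chr7:30183921-30184170, both on the plus strand. Capitals mark matches on either strand to TGACG (the core of a cyclic AMP response element), AGGTCA (a nuclear receptor core site), GCGTG (the AhR core site), CCAAT or TATAAA.
Ucp1: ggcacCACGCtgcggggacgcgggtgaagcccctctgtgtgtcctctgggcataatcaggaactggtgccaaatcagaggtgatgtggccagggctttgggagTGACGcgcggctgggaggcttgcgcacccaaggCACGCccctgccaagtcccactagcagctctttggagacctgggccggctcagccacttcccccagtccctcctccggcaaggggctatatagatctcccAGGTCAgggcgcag
Cox7a1: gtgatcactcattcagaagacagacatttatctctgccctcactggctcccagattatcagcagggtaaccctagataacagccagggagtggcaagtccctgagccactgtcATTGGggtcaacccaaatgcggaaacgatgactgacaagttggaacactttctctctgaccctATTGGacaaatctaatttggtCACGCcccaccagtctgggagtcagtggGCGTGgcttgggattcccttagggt
The Ucp1 window held TGACG at 147, AGGTCA at 14 and GCGTG at 245 and 114 bases before the start. The Cox7a1 window held GCGTG at 53 and 25 and CCAAT at 137 and 74 bases before it, and neither of the other motifs of the Ucp1 window. Of the other members searched, Dio2 held TGACG at 95 and 92 and TATAAA at 30 bases, Ppargc1a held TGACG at 49 bases, and Cox8b held none of these motifs. Among windows of the same length before 32851 start sites, TGACG occurred in 17.8%, AGGTCA in 14%, GCGTG in 28.2%, CCAAT in 33.8% and TATAAA in 12.4%, so each match is a common one and is given as a description.

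Ucp1, the uncoupling protein itself, was high in 4 vehicle lungs and near background in the other 16. The vehicle mice 1 to 5 measured -0.13, 3.91, 3.88, 4.73 and 3.30, of which the value of mouse 1 was not above background. At 12.5 mg/kg-bw/day mice 6 to 10 measured -0.0032, 0.04, 0.36, 0.27 and -0.03. At 25 mg/kg-bw/day mice 11 to 15 measured 0.06, 0.16, 0.26, 0.47 and 0.17, and at 50 mg/kg-bw/day mice 16 to 20 measured 0.19, 0.29, -0.10, 0.10 and -0.04. No dosed lung reached the lowest of vehicle mice 2 to 5, while vehicle mouse 1 lay below every dosed lung, so vehicle values stood on either side of the dosed ones. Group means were 3.14 ± 1.90 for vehicle (SD, n = 5), 0.13 ± 0.18, 0.22 ± 0.15 and 0.09 ± 0.16 in order of dose (SD, n = 5 each), and the 3 dosed groups did not differ beyond their spread. The signal was above background in 4 of 5 vehicle lungs and in 6 of 15 dosed lungs, 2 at each dose. The differences from vehicle were -3.01, -2.92 and -3.05 on the log2 scale (SE 0.54), with no step from dose to dose. Without vehicle mouse 4, the animal over the stated number and the one with the highest Ucp1, they were -2.61, -2.52 and -2.65.

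Each lung slide carried 1 array of each dose group, so the mice could also be compared within slides. On the slide of vehicle mouse 1 the 3 dosed lungs lay 0.12 to 0.32 above it. On the other 4 slides every dosed lung lay 2.83 to 4.77 below its vehicle lung. Array position on the slide followed dose in all lung slides, and the part of position in the difference cannot be told apart from dose.

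**Figure D1:**
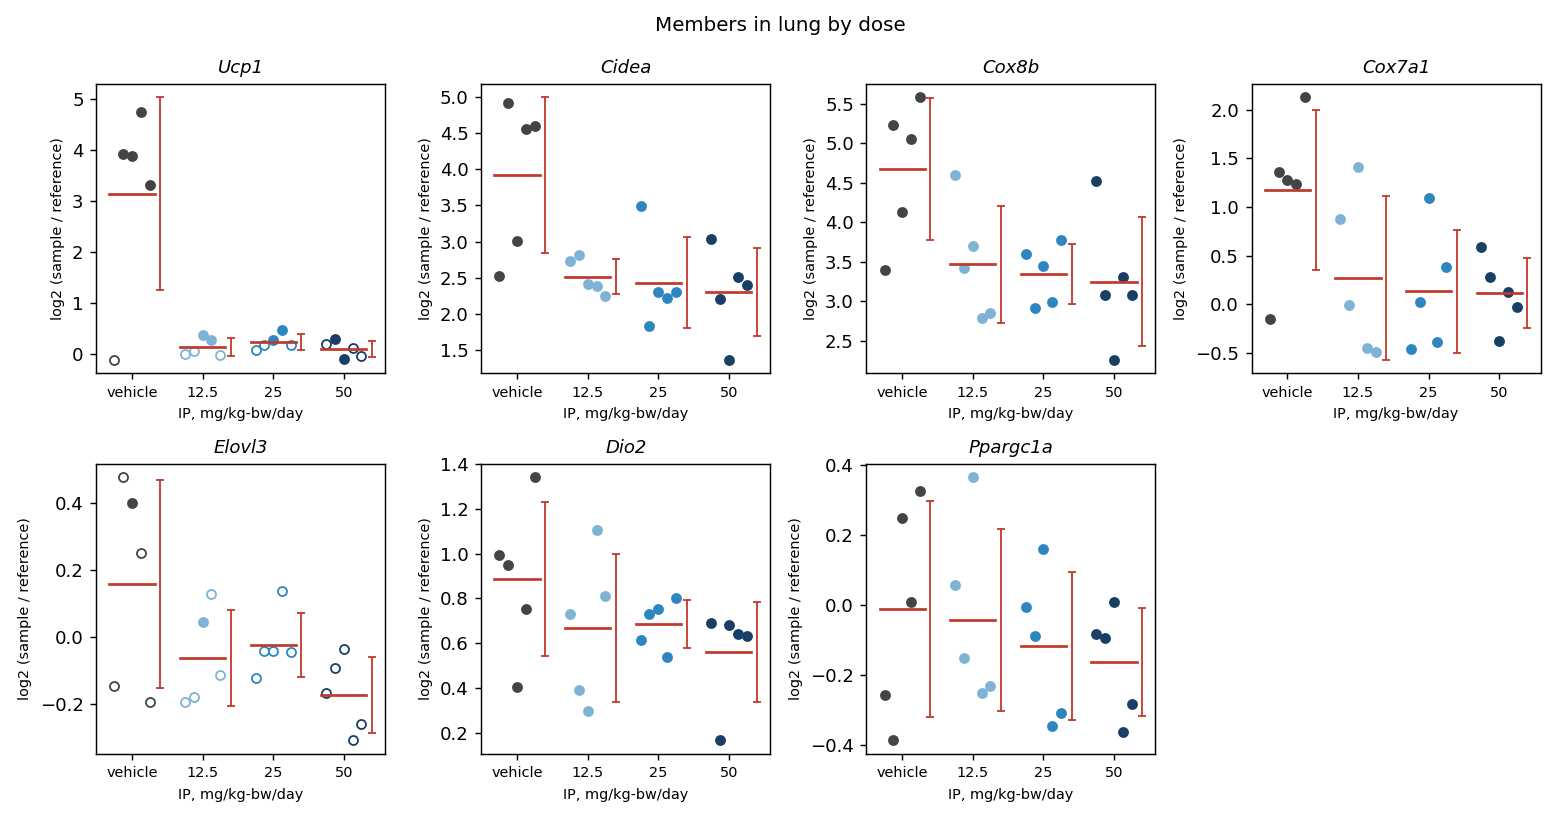
Log2 ratio (sample / reference) of each member in lung, 1 point a mouse, by dose group in mg/kg-bw/day. Filled points are above background and hollow points are not, red lines are group means and bars are SD (n = 5). Ucp1 has 4 vehicle points at 3.30 to 4.73 and 1 at -0.13, while the other panels show overlapping groups.

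Cidea, the lipid droplet protein, was above background in all 20 lungs. Vehicle mice 1 to 5 measured 2.52, 4.91, 3.00, 4.56 and 4.60. Dosed lungs ran from 1.36 (mouse 18) through a median of 2.39 to 3.50 (mouse 11). Vehicle mice 2, 4 and 5 lay above every dosed lung, while vehicle mice 1 and 3 lay within the dosed range. The differences from vehicle were -1.40, -1.49 and -1.62 in order of dose (SE 0.39).

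Cox8b, a cytochrome c oxidase subunit, gave 3.40, 5.23, 4.12, 5.05 and 5.59 in vehicle mice 1 to 5. The dosed lungs ran from 2.25 (mouse 18) to 4.60 (mouse 6), with a median of 3.31. Mice 6 and 16, dosed at 12.5 and 50 mg/kg-bw/day, measured 4.60 and 4.52 and lay above vehicle mice 1 and 3, so the groups overlapped. The differences from vehicle were -1.21, -1.34 and -1.43 (SE 0.41).

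Cox7a1, the other subunit, gave -0.15, 1.36, 1.27, 1.23 and 2.13 in vehicle mice 1 to 5. In dosed lungs it was highest in mice 8 (1.41) and 13 (1.09) and lowest in mouse 10 (-0.49), with a median of 0.03. Mouse 8 lay above 4 of the 5 vehicle lungs although its Ucp1 was 0.36. The differences were -0.90, -1.04 and -1.05 (SE 0.39).

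Elovl3, Dio2 and Ppargc1a did not set the 4 vehicle lungs apart. Elovl3 was above background in 1 of 5 vehicle and 1 of 15 dosed lungs, so its differences of -0.22, -0.18 and -0.33 (SE 0.11) lie near the limit of detection. Dio2 was above background in all 20 lungs, at 0.40 to 1.34 in vehicle mice and 0.16 to 1.11 in dosed mice, with differences of -0.22, -0.20 and -0.33 (SE 0.16). Ppargc1a was likewise measured in all lungs, at -0.39 to 0.33 in vehicle and -0.36 to 0.37 in dosed mice, with differences of -0.03, -0.11 and -0.15 (SE 0.14).

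Calls were counted across the array with limma, and a probe passed where its adjusted p did not exceed 0.05 and its fold change reached 1.5. By this rule 0 of 7 members passed at 12.5, 0 at 25 and 1 (Ucp1) at 50 mg/kg-bw/day. The shares of all 55681 probes that passed were 0%, 0.0126% and 0.079%. At an unadjusted p under 0.05 the member counts were 4, 4 and 6. These contrasts chose the members, and nothing is read from the counts.

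The other genes of the thermogenic pathway, taken from 4 lists by role, were mostly level in lung. None of the 12 signal and hormone genes, 12 transcription factors, 16 fuel genes or 13 membrane and secreted genes passed both thresholds in either direction at any dose. Their median differences at 50 mg/kg-bw/day were -0.03, -0.05, -0.16 and -0.14, against 5e-04 for all probes, and 8, 8, 11 and 9 of their members lay below 0. Of all 55681 probes, 27736 lay below 0. Not all were level. Fabp3 (-0.95, SE 0.48), Ckmt2 (-0.91, SE 0.69), Otop1 (-0.72, SE 0.25) and Elovl6 (-0.70, SE 0.24) lay lower by over 1.5-fold at this dose, as did Pdk4 below. The largest rise was that of Adrb1 (0.42, SE 0.30). Prdm16, the regulator that sets brown fat identity, measured 2.3 to 3.7 with no gap between groups. Lhx8 was above background in 0 of 20 lungs and Ebf2, another brown fat regulator, in 1. The amino acid transporter Slc36a2, a surface marker of brown fat, lay at 3.2 to 4.0 in vehicle and 2.8 to 4.0 in dosed lungs.

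Pdk4, which spares glucose when fat is burned, came closest to the pattern of Ucp1 in the fuel list. Vehicle mice 1 to 5 measured 0.4, 2.5, 2.0, 1.9 and 2.1, and dosed lungs 0.1 to 1.9, with a difference at 50 mg/kg-bw/day of -1.24 (SE 0.32, limma adjusted p = 0.12). It was singled out after its values were seen. Cebpb, a factor of fat cell differentiation, had a limma adjusted p of 0.025 at this dose with a difference of -0.50. At 25 mg/kg-bw/day its limma adjusted p was 0.038 with a difference of -0.56. Both differences are under the fold threshold. Of the 19 paralogs of the members, such as Ucp2 and Ucp3, none passed, and their median difference was -0.01 with 11 below 0.

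Markers of fat, heart and mesothelium lay lower in dosed than in vehicle lungs on average, as the members did, although no marker passed the thresholds at any dose. The mean of 20 fat cell markers was 1.05, 2.98, 1.61, 2.04 and 2.77 in vehicle mice 1 to 5 and 0.61 to 1.89 in dosed mice, with 14 to 20 of the markers above background. At 50 mg/kg-bw/day 20 of 20 differences lay below 0, with a median of -0.75, whereas 27736 of all 55681 probes did. These differences share the same vehicle arrays and are not separate results. Fabp4, the fat cell fatty acid carrier, measured 1.7, 6.5, 3.6, 4.3 and 5.5 in vehicle mice 1 to 5, and the hormone Adipoq 0.5, 4.6, 0.9, 2.1 and 3.7. Vehicle mouse 3, whose Ucp1 was 3.88, therefore had an Adipoq value inside the dosed range of -0.2 to 1.9. Of the 20 fat markers, 5 (Cidec, Lpl, Lipe, Pnpla2 and Pparg) are also in the lists above.

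The mean of 15 heart muscle markers was 0.96, 2.30, 1.94, 2.30 and 3.28 in vehicle mice 1 to 5 and -0.14 to 2.40 in dosed mice, with 9 to 15 of the markers above background. Its difference at 50 mg/kg-bw/day had a median of -0.98, with 15 of 15 below 0, again from the same vehicle arrays. The heavy chain Myh6 lay between 0.3 and 7.1 over the 20 lungs, whereas the ventricular light chain Myl2 lay between -0.25 and 0.14. The 15 skeletal muscle markers averaged -0.84 to -0.16 in all lungs. The 6 measured mesothelium markers averaged 0.41 to 1.15 in vehicle and -0.60 to 1.31 in dosed lungs. The part of these tissues in the member results was not tested. In bulk RNA, fewer cells of a type and less RNA per cell cannot be told apart.

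Cox7a1 broadly went with the heart list from mouse to mouse, though not in exact order. Mouse 6 had a heart mean of 2.40 with a Cox7a1 of 0.87, and mouse 10, lowest for Cox7a1 (-0.49), had a heart mean of 0.55. Mice 5 and 8, with the 2 highest Cox7a1 values (2.13 and 1.41), had heart means of 3.28 and 2.28. Mice 9, 11, 14 and 18, with heart means of -0.11, -0.14, -0.11 and -0.04, had Cox7a1 values of -0.45, -0.46, -0.39 and -0.38. Mouse 8 thus had a heart mean like those of vehicle mice 2 and 4, with Ucp1 near background. Cox7a1 and Ucp1 therefore ordered the lungs differently.

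**Figure D2:**
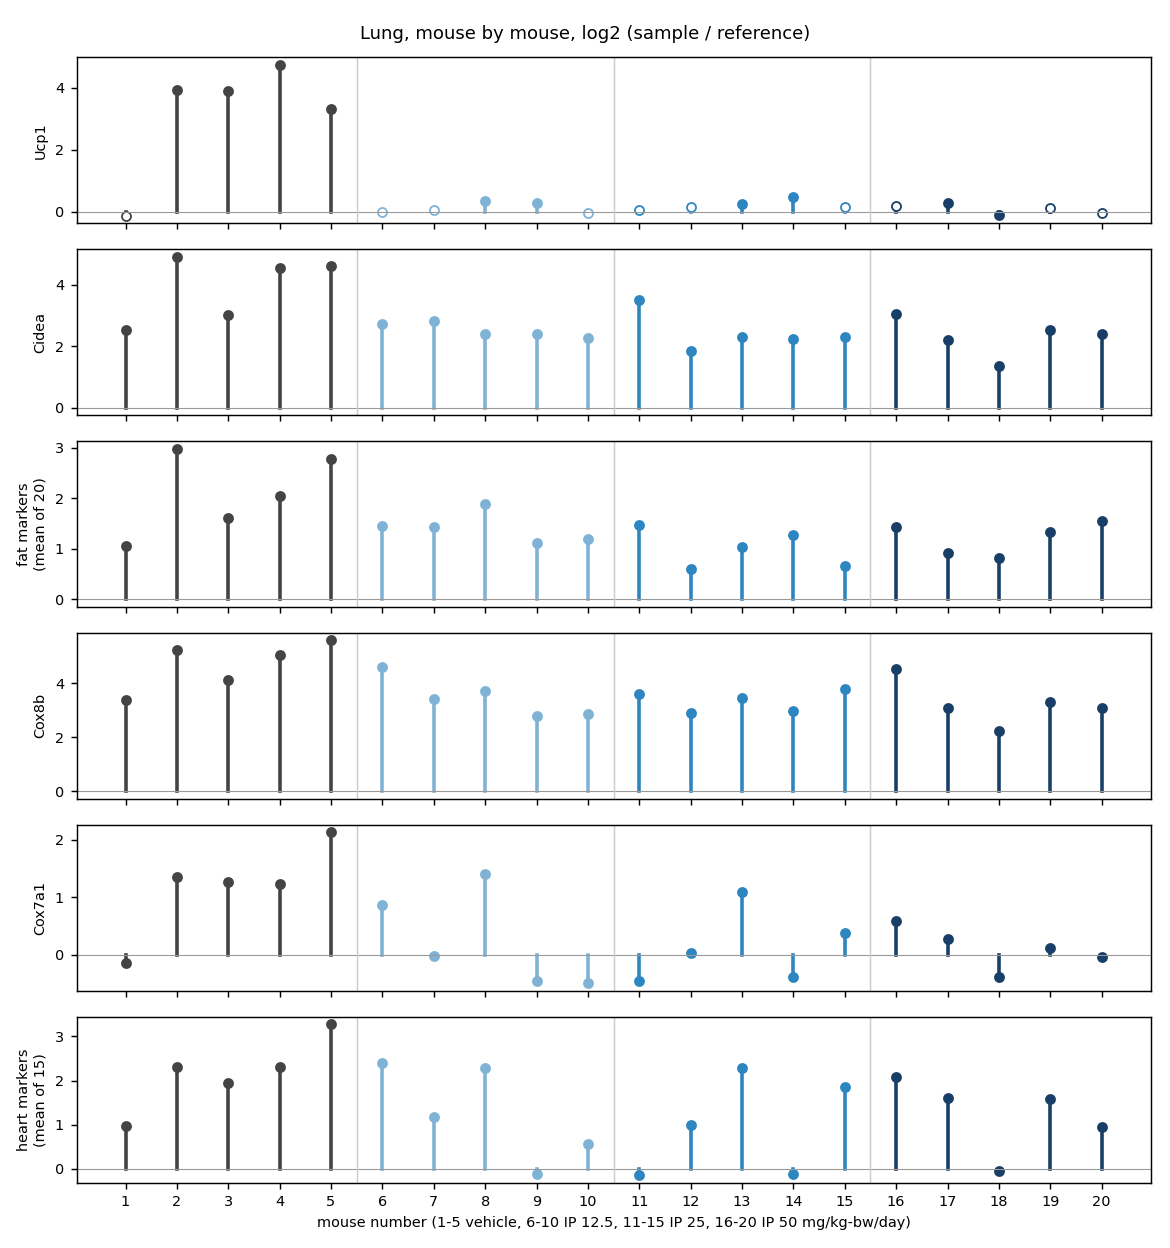
Lung values mouse by mouse (mice 1 to 20, dose groups divided by lines) as log2 ratio of sample to reference for members and for the means of the marker lists. Filled points are above background and hollow points are not. Ucp1 stands at 3.30 to 4.73 in mice 2 to 5 alone, while the heart mean is over 2 in vehicle mice 2, 4 and 5 and in dosed mice 6, 8, 13 and 16.

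Genes whose lung values ran most like those of Ucp1 were ranked among 15320 genes above background on at least 10 lung arrays. The measure was Pearson's r over 20 arrays after removal of group means, and because Ucp1 falls into separate clusters of mice, it rests mainly on the gap between vehicle mouse 1 and the other vehicle mice and carries no test. The 10 highest were Gpd1 (0.78), Fam126b (0.77), Mtus1 (0.76), Il11ra1 (0.75), Cebpd (0.75), H6pd (0.73), Sgms1 (0.73), Nwd1 (0.71), Irf2bp2 (0.70) and Dnaja3 (0.70). Gpd1, a glycerol phosphate dehydrogenase, ranged from 2.34 to 3.43 in vehicle and from 2.19 to 2.86 in dosed lungs. Ucp1 was above background on 10 of the 20 arrays, so this order depends in part on noise.

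In vehicle mice the members differed strongly between tissues, and each tissue was high for different ones. Liver arrays were on other slides than lung and forestomach arrays, so the part of slide in contrasts with liver cannot be told apart from tissue. Between forestomach and liver, 5 of 7 members passed limma at the thresholds above, against 22.7% of all probes. The means of this contrast used no lung arrays, but its SE came from the joint fit, which includes them. Cidea was 5.71 ± 0.13 in forestomach (SD, n = 4) and above background in none of the 4 vehicle livers, a difference of 5.54 (SE 0.36, adjusted p = 3.2e-19) or at least 46.4-fold. Elovl3 was the reverse, at 5.92 ± 0.32 in liver (SD, n = 4) and above background in none of the vehicle forestomachs, a difference of -5.92 (SE 0.23, adjusted p = 4.5e-28) or at least 60.4-fold. Each bound is the lower of 2 values: the fold of the log2 ratios, and the Cy5 signal of the bright group over the dimmest signal that counted as above background on each array of the dim group (or the spot's own where that was higher).

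Cox8b was at least 2.56-fold higher in forestomach than in liver (difference 1.89, SE 0.61, adjusted p = 0.012). Cox7a1 was 2.06 higher on the log2 scale (SE 0.72, adjusted p = 0.023). The glandular stomach list went with it: forestomach mice 2, 3 and 5, with list means of 6.70, 6.71 and 6.79, had Cox7a1 values of 2.45, 1.92 and 1.95, and mouse 1, with a list mean of 0.57, had -0.70, near the liver mean of -0.65. The part of glandular tissue in this difference was not tested. Ppargc1a was lower in forestomach (difference -0.89, SE 0.31, adjusted p = 0.022). Ucp1 (0.53, SE 0.58, adjusted p = 0.58) and Dio2 (0.35, SE 0.18, adjusted p = 0.13) did not pass. The joint fit takes in the Ucp1 spread of vehicle lung (SD 1.90) and of forestomach at 50 mg/kg-bw/day (SD 2.14). In the groups compared, the Ucp1 SD was 0.14 (vehicle forestomach) and 0.21 (vehicle liver), so this test cannot decide on Ucp1. The calls of Cox8b, Cox7a1 and Ppargc1a were lost with Cy5 alone (limma adjusted p = 0.12, 0.11 and 0.057). They also rested on single arrays. Cox8b was lost without forestomach mouse 1 (limma adjusted p = 0.052), Cox7a1 without forestomach mouse 2, 3 or 5 (0.098, 0.065 and 0.068) or liver mouse 1 (0.051), and Ppargc1a without forestomach mouse 1 (0.24) or liver mouse 3 or 5 (0.052 and 0.067). Ppargc1a was lost too with median centring (difference -0.31, limma adjusted p = 0.56) and with the mean over its probes (0.069). Cidea and Elovl3 passed under every alternative tried.

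Against liver, the vehicle lung was at least 7.31-fold higher for Ucp1, 11.2-fold for Cidea, 22.5-fold for Cox8b and 1.88-fold for Dio2. It was lower for Elovl3 (-5.76) and Ppargc1a (-1.62) and higher for Cox7a1 (1.82) on the log2 scale. Against forestomach it was higher for Ucp1 (2.55), Cox8b (2.92) and Dio2 (0.94), lower for Cidea (-1.79) and Ppargc1a (-0.73), and differed by less than 1 SE for Cox7a1 (-0.23, SE 0.68) and Elovl3 (0.15, SE 0.22). By count 7 of 7 members passed between lung and liver and 4 of 7 between lung and forestomach, where 26.9% and 19.5% of all probes did. The vehicle lungs chose the members, so nothing is read from these counts.

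**Figure D3:**
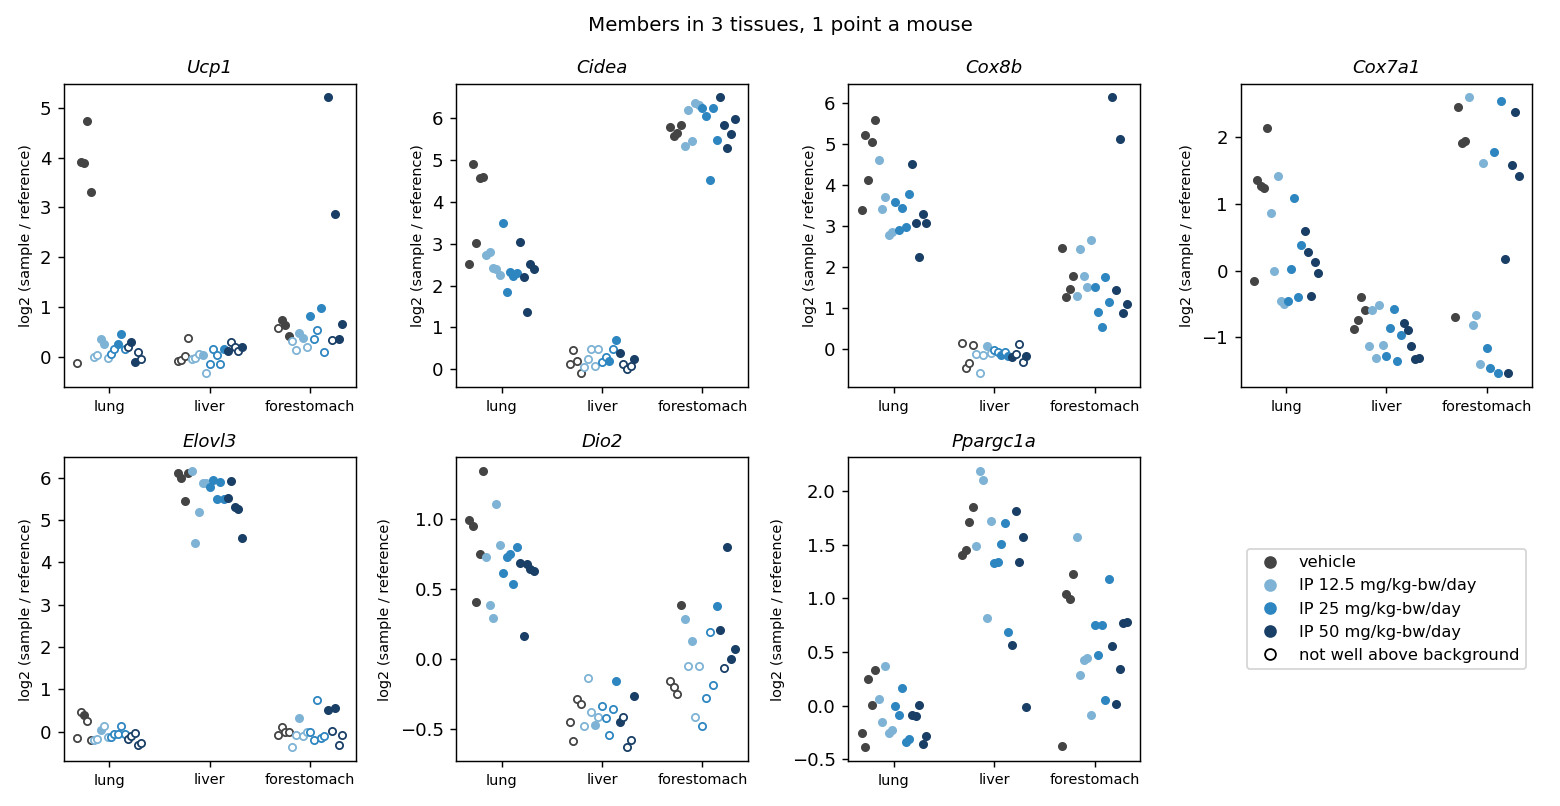
Log2 ratio (sample / reference) of the 7 members in lung, liver and forestomach, 1 point a mouse, coloured by dose and hollow where not above background. Elovl3 is high in liver (4.45 to 6.15), Cidea in forestomach (4.52 to 6.49), and Ucp1 in 4 vehicle lungs and 2 forestomachs at 50 mg/kg-bw/day.

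Set in order over all groups, the highest Ucp1 means were vehicle lung (3.14 ± 1.90, SD, n = 5) and forestomach at 50 mg/kg-bw/day (1.88 ± 2.14, SD, n = 5), which did not differ beyond their spread. The other 10 groups lay between -0.06 and 0.59, each within the spread of its neighbours.

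In forestomach, Ucp1 was high in 2 mice of the highest dose, and no member passed the test. Vehicle mice 1, 2, 3 and 5 measured 0.58, 0.74, 0.64 and 0.41. Mice 6 to 10 measured 0.31, 0.15, 0.48, 0.38 and 0.19, mice 11 to 15 measured 0.83, 0.36, 0.53, 0.97 and 0.09, and mice 16 to 20 measured 5.21, 0.33, 2.86, 0.35 and 0.67. Mice 16 and 18 stood above all others, mouse 20 lay among the vehicle values, and mice 17 and 19 lay below them. The differences from vehicle were -0.29, -0.03 and 1.29 in order of dose (SE 0.68, limma adjusted p = 0.98, 1.0 and 1.0), and the last was -0.14 without mice 16 and 18.

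Cox8b went the same way in these mice. Vehicle mice 1, 2, 3 and 5 measured 2.47, 1.28, 1.47 and 1.79, and mice 16 to 20 measured 6.13, 1.45, 5.13, 0.87 and 1.0975. The difference at 50 mg/kg-bw/day was 1.18 (SE 0.83, limma adjusted p = 1.0) with all mice and -0.61 without mice 16 and 18. Elovl3 was above background in both, at 0.51 and 0.56, and in 1 other forestomach. Both values lay within the range of the other 17 mice (-0.36 to 0.76). The array of mouse 18 had the highest share of probes above background in forestomach (85.9%), against 47.7% for mouse 16.

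Cidea was high in every forestomach, at 4.52 to 6.49, and mice 16 (6.49) and 18 (5.27) held no common place in that range. Ppargc1a (0.56 and 0.34) lay within the range of the other 17 mice (-0.38 to 1.57). Dio2 was 0.21 in mouse 16 and 0.80 in mouse 18, the latter above the highest of the others, 0.39.

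The fat list mean was highest in the same mice. It was 4.34 in mouse 16 and 3.72 in mouse 18, against 1.24 to 2.97 in the other 17 forestomachs, with 11 to 20 of the 20 markers above background. Even so, 8 of the 20 markers lay within the range of the other mice in mouse 16, mouse 18 or both: Lep, Pparg, Cebpa, Slc2a4, Dgat2 and Lgals12 in both, and Lipe and Acvr1c in mouse 18. Plin1, a coat protein of the fat droplet, measured 5.6 and 3.7 in these mice and -0.3 to 2.3 in the others. The receptor Adrb3 measured 3.2 and 1.6 against 0.3 to 1.2, and the brown fat surface marker Slc36a2 4.1 and 2.8 against -0.1 to 0.9, both singled out after their values were seen. Plin5 (2.69 and 1.98 against a highest of 1.30) and Clstn3 (0.89 and 0.30 against -0.32) also stood above the others in both mice. So did Cpt1b, Otop1, Slc27a1, Pnpla2 and Lpl of the same pathway lists. Other brown fat genes did not set both mice apart. Prdm16 (3.93 and 2.47), P2rx5 (1.88 and 1.25), Kcnk3 (2.73 and 1.64) and Zic1 (-0.18 and -0.21) lay within the range of the others. Ebf2 lay within it in mouse 18 (0.63) and above it in mouse 16 (1.16 against 0.81). Adipoq was 6.3 and 5.2, yet it also stood at 1.9 to 4.1 in mice 1, 8, 10, 11, 12 and 14, whose Ucp1 was 0.19 to 0.97.

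Muscle markers set mice 16 and 18 apart from each other. The skeletal muscle list averaged 3.08 in mouse 18, 0.49 in mouse 16 and -0.10 to 0.83 in the others. Cox6a2, the muscle form of another cytochrome c oxidase subunit, was 0.96 in mouse 18 and -4.65 to -3.70 in the other 17, with -4.08 in mouse 16. The part of fat and muscle in the Ucp1 and Cox8b values was not tested.

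**Figure D4:**
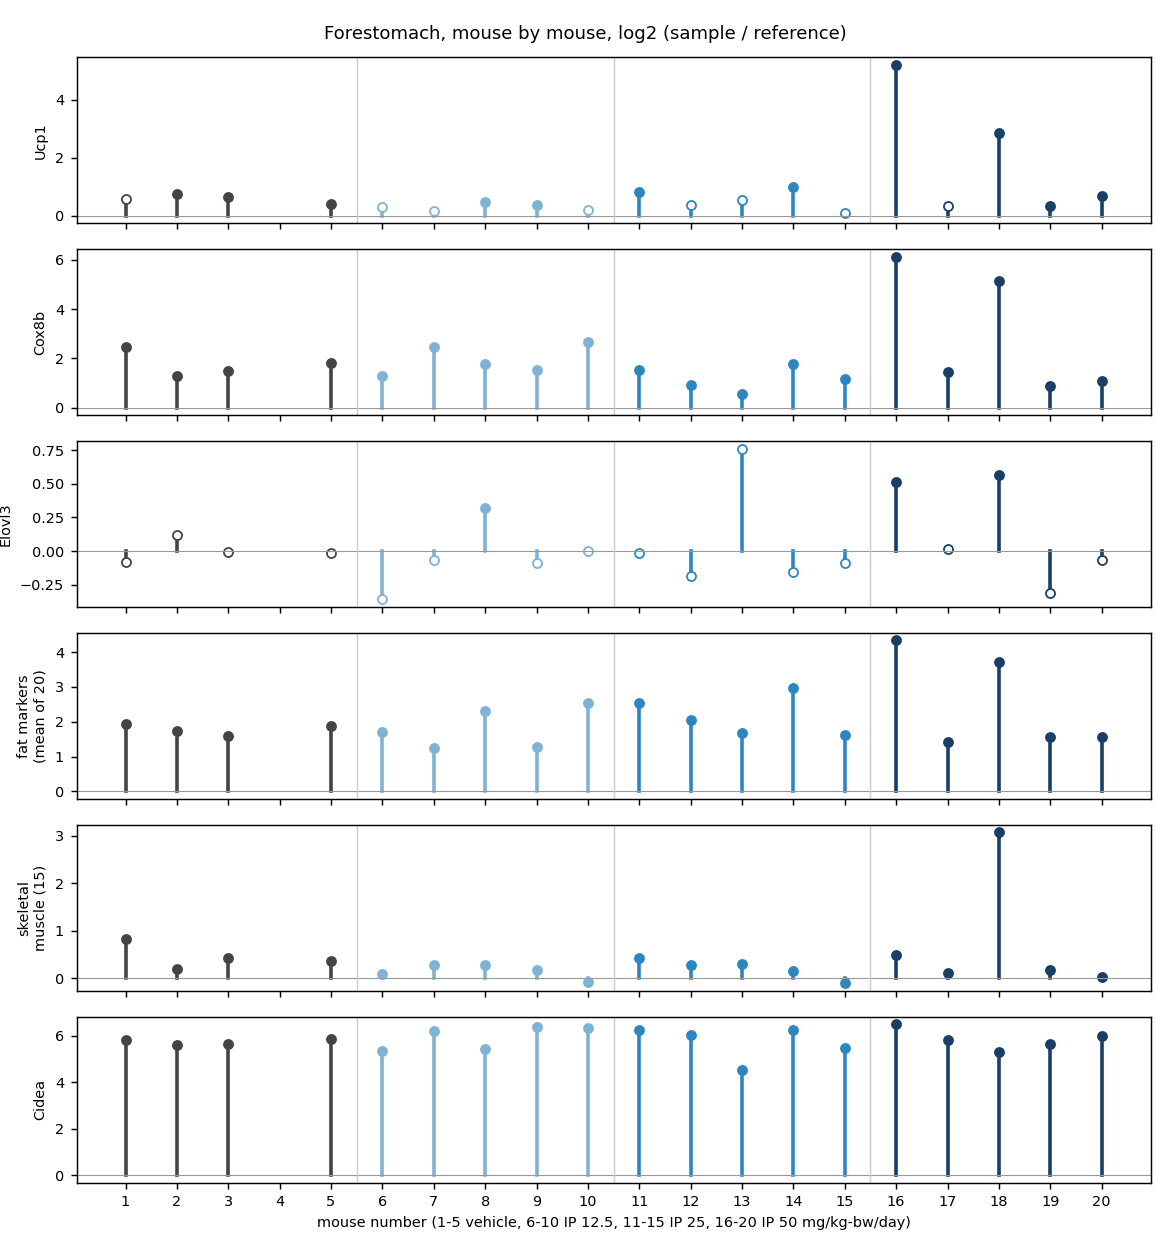
Forestomach values mouse by mouse (vehicle mouse 4 absent) as log2 ratio of sample to reference for 4 members and for the means of the fat and skeletal muscle lists. Hollow points are not above background. Ucp1, Cox8b and the fat mean are highest in mice 16 and 18, the skeletal muscle mean in mouse 18, and Cidea is level.

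Cox7a1 split the forestomachs along a different line. It was 1.42 to 2.60 in mice 2, 3, 5, 6, 10, 13, 15, 18, 19 and 20, the 10 mice with glandular stomach means of 4.93 to 6.89, and -1.54 to 0.18 in the other 9. The 2 sets did not overlap in either value. They were uneven over the groups, the high set holding 3 of 4 vehicle mice and 2, 2 and 3 of the 5 mice at each dose in rising order. The dose differences were -1.14, -1.37 and -0.60 (SE 1.03), all within 2 SE, and the part of glandular tissue in them was not tested. The last ran from -1.30 without vehicle mouse 1 to -0.01 without mouse 17.

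**Figure D5:**
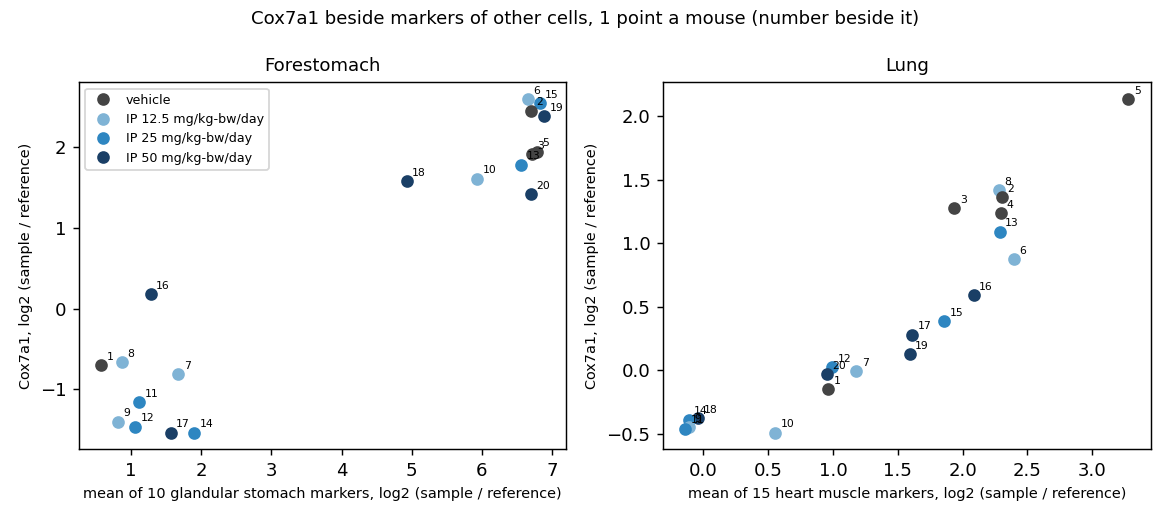
Cox7a1 log2 ratio (sample / reference) against the mean log2 ratio of the heart muscle list in lung and of the glandular stomach list in forestomach, 1 point a mouse labelled by number and coloured by dose. In forestomach 10 mice lie at list means of 4.93 to 6.89 with Cox7a1 of 1.42 to 2.60, apart from the other 9.

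With limma 0 of 7 members passed in forestomach at each dose, where 0% of all probes passed, and 0 had an unadjusted p under 0.05. The lowest adjusted p was 0.98. In the 4 pathway lists and the paralogs no gene passed there or in liver at any dose. At 50 mg/kg-bw/day in forestomach, 9 of 12 signal, 6 of 12 transcription, 14 of 16 fuel and 12 of 13 membrane and secreted genes lay above 0. Of all 55681 probes, 28482 did. The list medians were 0.09, 0.01, 0.22 and 0.09 against 0.0034 for all probes, and mice 16 and 18 are in these values.

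In liver only Elovl3, Ppargc1a and Cox7a1 were above background in all 19 mice. Ucp1, Cidea and Dio2 were above it in 4 livers each and Cox8b in 5, so a fall in them could not be detected at this signal. Vehicle Elovl3 was 6.12, 6.00, 5.45 and 6.12 in mice 1, 2, 3 and 5, and at 50 mg/kg-bw/day it was 5.53, 5.93, 5.30, 5.26 and 4.57 in mice 16 to 20. The groups overlapped, and the difference was -0.60 (SE 0.29, limma adjusted p = 0.72).

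Liver Ppargc1a was 1.40, 1.45, 1.72 and 1.85 in vehicle mice 1, 2, 3 and 5 and 0.57, 1.82, 1.34, 1.57 and -0.01 in mice 16 to 20, a difference of -0.55 (SE 0.32, limma adjusted p = 0.75). Mice 16 and 20 were the low ones, and 78.9% and 75.2% of probes on their liver arrays were above background. Mice 9 (77.5%) and 15 (73.3%) held the lowest Ppargc1a of their dose groups, 0.81 and 0.68. Mouse 13 (66.6%) measured 1.51, and the other liver arrays had at most 45.0% of probes above background. Ucp1 was above background only in the livers of mice 9, 15, 16 and 20. The part of array signal in these values was not tested. Cox7a1 was -0.88, -0.74, -0.39 and -0.59 in vehicle and -0.78, -0.89, -1.13, -1.32 and -1.30 at 50 mg/kg-bw/day, a difference of -0.43 (SE 0.18, limma adjusted p = 0.72). Each of these 3 liver differences turned to above 0 when arrays were centred on their medians instead of loess (0.02, 0.16 and 0.15).

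With limma 0 of 7 members passed in liver at each dose, where 0% of all probes passed, and 0, 0 and 1 (Cox7a1) had an unadjusted p under 0.05. The liver fat list averaged 1.58 to 2.06 in all mice. The dose effect in forestomach was also set against that in liver for each member in a joint limma fit of all tissues. No difference passed, with the lowest adjusted p at 0.77 for Elovl3 at 50 mg/kg-bw/day. The spread in this fit includes the lung arrays, so it cannot decide on Ucp1.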

How the data were processed

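Per the file headers, the authors scanned 2-colour Agilent arrays (Cy5 sample, Cy3 reference) with Feature Extraction 10.7.3.1 (39 arrays) or 11.0.1.1 (19 arrays), which gave median intensity per spot and a log10 ratio. The deposited value table holds the authors' normalized log2 ratios. They served as an alternative in lung and forestomach only, since probe names in the liver table did not line up with the scanner values.

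Median intensities of 59305 non-control spots on 58 arrays were turned into log2 ratios, loess-normalized within arrays without background subtraction, with outlier spots left out, and averaged to 55681 probes (R 4.3.3, limma 3.58.1). The probe with the brightest Cy5 signal stood for each gene, and Ppargc1a had a second, dimmer one. Dose groups were fitted within each tissue, and vehicle tissues in a joint fit, with lmFit, eBayes and Benjamini-Hochberg adjustment over all probes. A probe passed at 1.5-fold or more with an adjusted p not above 0.05. In data simulated from the lung arrays with independent normal noise, the dose fit recovered known changes on average. The joint fit, and groups split as vehicle Ucp1 was, were not simulated. A mouse number marks the same animal in all tissues; deviations of the same mouse in a pair of tissues correlated with medians of 0.0437 (lung and liver), 0.154 (lung and forestomach) and 0.0155 (forestomach and liver), so the mouse was also used as a block. P-values measure the spread between mice. The number of arrays limits the precision. No 2 arrays held identical values.

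The members and lists were chosen with earlier results of these data known. The glandular stomach list was added after the values were seen. No p-value is given for the members in lung dose or vehicle lung contrasts, or for list means. All members are reported for every tissue, and named list genes were those that mark a cell type or a role in the pathway or that stood out after their values were seen. Promoter windows from RefSeq were searched for 5 members, and Elovl3 and Cidea were not searched and have none printed. Figures were drawn with matplotlib 3.10.9.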

Additional observations from a re-analysis of the deposited data

Results flagged for a closer look

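A sample far from the rest of its group was found in 8 of 84 groups of 4 or 5 mice by Dixon's test, where chance marks about 1 in 20. In lung these were Cidea in mouse 11 at 25 mg/kg-bw/day (3.50, nearest value 2.31) and Dio2 in mouse 17 at 50 mg/kg-bw/day (0.16, nearest 0.63). In liver at 12.5 mg/kg-bw/day they were Ucp1 in mouse 10 (-0.33, nearest -0.05) and Dio2 in mouse 7 (-0.14, nearest -0.38), both not above background. In forestomach vehicle mouse 1 was low for Ppargc1a (-0.38, nearest 0.99) and Cox7a1 (-0.70, nearest 1.92), vehicle mouse 5 was high for Dio2 (0.39, nearest -0.16), and mouse 13 at 25 mg/kg-bw/day was high for Elovl3 (0.76, nearest -0.01).

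At 50 mg/kg-bw/day every lung lay below the vehicle mean of Ucp1 and every liver above it, by 0.13 on average in liver (difference 0.1255). This difference between tissues was not tested, and Ucp1 was near background in liver.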

How the results depend on the processing

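The lung count of members past the thresholds was 1 (Ucp1) at 12.5 mg/kg-bw/day with the mouse as replicate block. At 25 mg/kg-bw/day it was 1 with the mean over all probes, with slide as a block and with the replicate block. At 50 mg/kg-bw/day it was 0 with median centring, Cy5 alone, the scanner log ratio, the 2 groups fitted alone or a trended and robust eBayes, and 2 with slide or mouse as a block. Leaving out 1 lung array at a time gave counts of 0 to 1, 0 to 1 and 0 to 2, with the highest without vehicle mouse 1 and 0 at the highest dose without vehicle mouse 2, mouse 18 or mouse 19. Ucp1 itself ran from -3.83 to -2.61, -3.73 to -2.52 and -3.87 to -2.65. Elovl3 in lung at 50 mg/kg-bw/day was -0.92 with the scanner log ratio.

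The vehicle lung and forestomach count was 2 with the scanner log ratio and 2 in mice at 50 mg/kg-bw/day, and 4 to 5 with 1 array left out. The forestomach and liver count was 2 with Cy5 alone, 2 in mice at 25 mg/kg-bw/day and 3 to 5 with 1 array left out (3 without forestomach vehicle mouse 1). The lung and liver count was 6 to 7. Ucp1 lay lower in lung than in liver in mice at 50 mg/kg-bw/day (-0.0942) and lower than in forestomach at the 3 doses, lowest first (-0.17, -0.33 and -1.79).

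Directions that turned in liver at 50 mg/kg-bw/day were these. With median centring, Ucp1 was -0.11, Ppargc1a 0.16, Elovl3 0.0188, Cox7a1 0.154 and Cox8b -0.0095. With the scanner log ratio, Ucp1 was -0.27, Cidea 0.24 and Dio2 0.56. With Cy5 alone, Cidea was 0.0751, Dio2 0.0632 and Cox8b -0.0228. Cidea was 0.0173 with normexp, and Cox8b -0.0146 with slide as a block. With 1 liver left out Cidea ran from -0.0974 to 0.0905 and Cox8b from -0.0978 to 0.1056. In forestomach at 50 mg/kg-bw/day, Ucp1 was -0.14, Elovl3 -0.12 and Cox8b -0.61 without mice 16 and 18 (chosen after seeing the data), Cidea was -0.011 with the scanner log ratio and -0.033 to 0.2714 with 1 mouse left out, and with median centring Ppargc1a was 0.0606 and Elovl3 -0.0063. None of these passed the test, and the cause was not tested.

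Between forestomach and liver, Ucp1 and Dio2 passed with the scanner log ratio (2.60 and 1.90) and in mice at 50 mg/kg-bw/day (1.70 and 0.668). The replicate block moved no other count of calls by over 1.5 times. Co-variation with Ucp1 was not run under alternatives, since the mice fall into separate clusters. Spots not above background limit what can be said of Ucp1, Cidea, Dio2 and Cox8b in liver and of Ucp1 and Elovl3 in lung.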
